A study of Mus musculus with 4 samples.

Results

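The deposited list of TBX5 binding sites held 39 peaks in the chromosomal regions of Wnt5a, Lef1 and Rspo2, 3 genes of the Wnt signalling pathway, out of 11224 peaks in all. Peaks were selected by position alone, but the regions themselves were chosen with earlier results of these data known. A peak was counted when its summit, the position of highest enrichment, lay on chromosome 14 from 28.8 to 29.9 Mb for Wnt5a, on chromosome 3 from 130.3 to 131.4 Mb for Lef1, or on chromosome 15 from 42.3 to 43.5 Mb for Rspo2. The Wnt5a region held 20 peaks, the Lef1 region 12 and the Rspo2 region 7.

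The tissue was the forelimb at embryonic day 10.5, from wild-type mouse embryos of the outbred ICR stock. The assay was ChIP-seq, which crosslinks and shears chromatin, pulls down the fragments bound by a protein with an antibody, and sequences them. A polyclonal antibody against TBX5, a T-box transcription factor, was used for 2 libraries, and 2 libraries of input chromatin served as the unprecipitated background. All 4 libraries came from whole forelimb buds, so the peaks are those of a mixture of limb mesenchyme, ectoderm and other cells. The list gives 1 value per peak for the 2 TBX5 libraries together. Single-replicate values, input values and read depth are therefore unknown here, and no difference between regions could be tested over samples. Each peak carries a signal value, the strength given by the authors' peak caller on a scale that is not stated, and a score. The score expresses the irreproducible discovery rate (IDR), an estimated rate of calls whose ranking is not consistent between replicates. This rate is not the chance that a given peak is absent from a replicate. The score runs from 540, an IDR of 0.05, to a ceiling of 1000, and is the only measure of replicate error in the list.

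Wnt proteins are secreted signals that bind Frizzled receptors on neighbouring cells. In the canonical branch, receptor binding stabilises beta-catenin, which enters the nucleus and activates target genes together with DNA-binding partners of the TCF/LEF family. Wnt5a is a ligand that acts mostly without beta-catenin, through receptors such as Ror2, and is needed for elongation of the limb. Rspo2 encodes R-spondin 2, a secreted protein that raises the sensitivity of cells to Wnt ligands through Lgr receptors and is needed for normal limb outgrowth. Lef1 is one of the nuclear partners of beta-catenin.

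The positions are those of the deposited file, and the build behind them limits how precisely a peak can be placed beside a gene. The labels name mm10, which is the assembly GRCm38. The windows were drawn on the earlier build mm9, on which Wnt5a lies near 29.32 Mb, Lef1 near 130.8 to 130.9 Mb and Rspo2 near 42.85 to 43.0 Mb, all approximate. Over the whole list, 72 summits on 5 chromosomes were placed past every protein-coding gene that RefSeq GRCm38.p6 has on the same chromosome. These summits were not compared with chromosome lengths, and the build of the list is unresolved here. None of the 72 was on chromosomes 14, 3 or 15, and for these chromosomes mm9 rests on the selection rule. If the positions were read on GRCm38, the window would miss Wnt5a altogether, and windows of the same length moved to the genes would hold 9, 10 and 7 peaks for Wnt5a, Lef1 and Rspo2 in place of 20, 12 and 7. Below, distances are measured from these approximate mm9 positions, "lower" and "higher" refer to the coordinate, and no peak is assigned to an exon, intron or UTR.

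**Figure D1:**
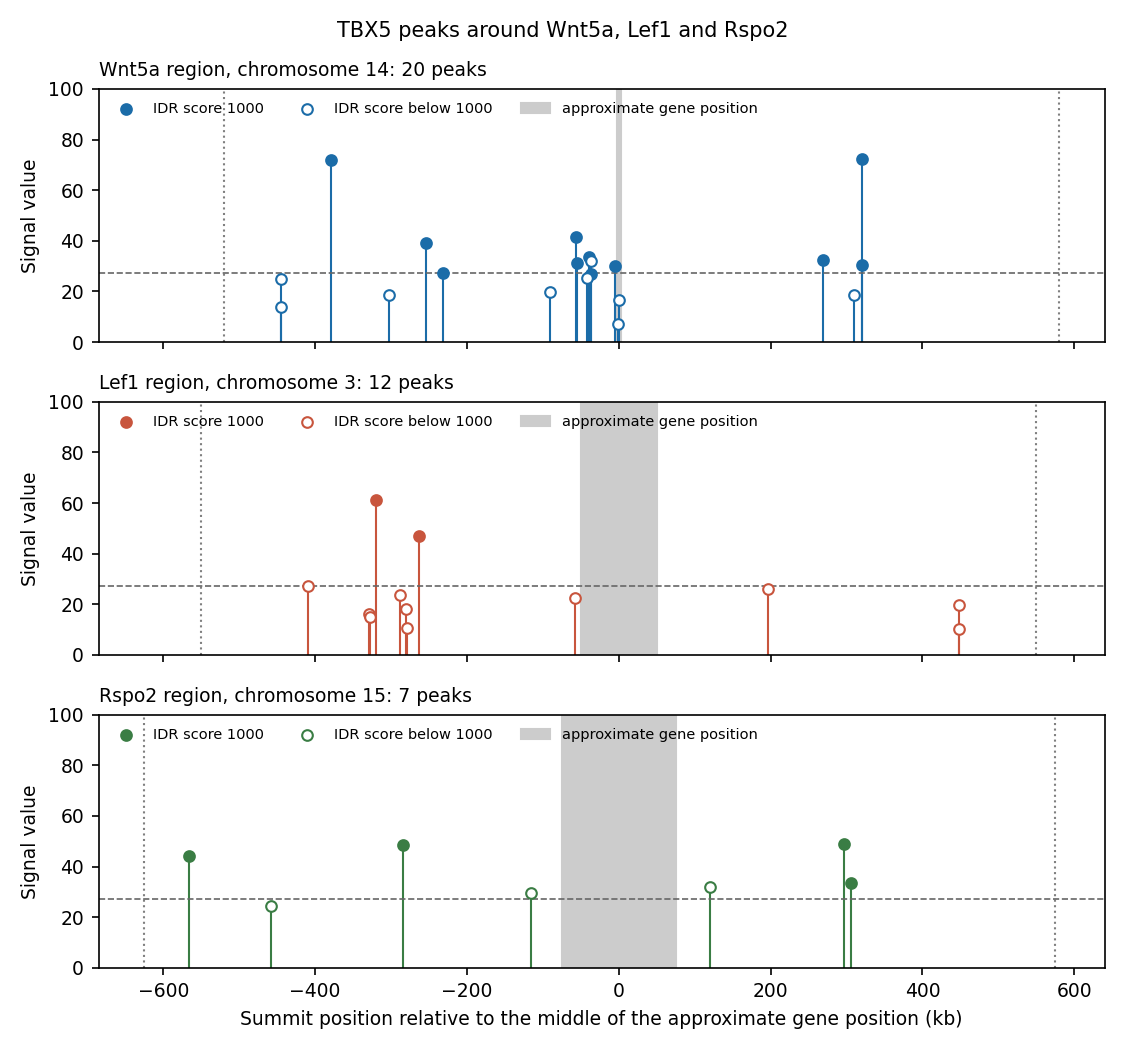
Signal value (vertical axis, the authors' scale) of each of the 39 peaks against its distance in kb from the middle of the gene's approximate position, in 1 panel per region. Filled points have the highest IDR score of 1000 and open points a lower one, grey bands mark the approximate gene position, dotted lines the window and the dashed line the median signal of all peaks. Of the 20 Wnt5a peaks, 10 lie within 100 kb of the stated position, all at lower coordinates. No summit lies within the bands of Lef1 and Rspo2, which mark spans, while the Wnt5a band marks a stated point.

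In the windows drawn on mm9, Wnt5a had the most TBX5 peaks of the 3 genes. With windows moved to the genes on GRCm38, Lef1 would have the most, 10 against 9 for Wnt5a and 7 for Rspo2. The Wnt5a region as drawn held 18.2 peaks per Mb, against 5.26 on chromosome 14 and 4.41 over the whole list. Chromosomes were measured between their outermost summits. When all chromosomes were divided into 2304 windows of the same 1.1 Mb, 57 of them (2.47%) held at least 20 summits, with a median of 3 and a maximum of 47. The Wnt5a region was denser than most windows and well below the densest.

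The signal of the 20 Wnt5a peaks ranged from 7.0 to 72.5 with a median of 28.7, against 27.2 over all peaks. Of these peaks 11 (55%) lay above the list's median, as did 50.0% of all peaks by definition. The highest score of 1000 was reached by 11 of the 20, or 55%, against 45.4% of all peaks. The number of Wnt5a peaks per Mb was 4.12 times that of the list, while their strength and scores were near those of the list.

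Near the approximate position of Wnt5a, 3 peaks had summits within 10 kb. The first, at 29314744, had a signal of 30.1 and a score of 1000. The other two lay 535 bp apart, at 29319282 and 29319817, with signals of 7.0 and 16.5 and the same score of 748. The weaker of them was the faintest peak of the region and had a q-value, the peak caller's estimate of the false discovery rate, of 0.511. Because the gene's position is known only to about 10 kb, it cannot be told on which side of the start of Wnt5a these 3 peaks lie.

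Further peaks lay close together on the lower side. A group of 4 summits spanned 5257 bp from 29278437 to 29283694, some 36.3 to 41.6 kb from the gene, with signals of 25.3, 33.6, 32.0 and 26.8 in order along the chromosome. Their scores were 736, 1000, 877 and 1000. A pair 1053 bp apart, at 29264105 and 29265158, had signals of 41.5 and 31.2, and both peaks scored 1000. Within 100 kb of the gene there were 10 of the 20 peaks, all at lower coordinates than the stated position, and the last of them, at 29229256, had a signal of 19.7 and a score of 608.

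On the higher side, the list was empty for 269 kb, from 29319817 to 29589109, the longest stretch without a summit inside the Wnt5a window. In RefSeq's order of protein-coding genes, Erc2 is the neighbour of Wnt5a at lower coordinates and Cacna2d3 the neighbour at higher ones. Erc2 encodes a scaffold protein of the presynaptic active zone and Cacna2d3 an auxiliary subunit of calcium channels. Whether single peaks lie inside these neighbours was not tested.

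The strongest peaks of the region were far from Wnt5a and on opposite sides of it. One spanned 29640513 to 29640686 on chromosome 14. Its summit, at 29640592, lay 321 kb above the gene with a signal of 72.5, and ranked 745 of all peaks. The other spanned 28940150 to 28940359. Its summit, at 28940248, lay 380 kb below with a signal of 72.1 and ranked 753. These were the only Wnt5a peaks in the top 10% of the list by signal, 2 of 20, where 10% of all peaks belong by definition. Both had the highest score.

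The next peaks by signal lay both near Wnt5a and far from it. The third, at 29264105, and the fifth, at 29281242, belonged to the groups within 100 kb described above. The peak at 29065937, 254 kb below the gene, had a signal of 39.2, and the peak at 29589109, 269 kb above it, had a signal of 32.6, both with a score of 1000. The remaining distant peaks had signals between 14.0 and 30.6, and the lowest score of the region, 554, belonged to the peak at 29017069, 303 kb below. Peaks beyond 100 kb had a median signal of 28.9 and those within 100 kb a median of 28.5, so that the typical peak was about as strong near Wnt5a as far from it.

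Lef1 showed a different arrangement, with few peaks near the gene and most of them distant on its lower side. Its region held 12 peaks, or 10.9 per Mb, against 5.49 on chromosome 3. Of the 2304 windows of 1.1 Mb, 215 (9.33%) held at least 12 summits. The gene lies on the forward strand in RefSeq, so lower coordinates are upstream of it. Among protein-coding genes its neighbours in RefSeq are Rpl34, which encodes a ribosomal protein, on the lower side and Hadh, which encodes an enzyme of fatty acid oxidation, on the higher side.

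Only 1 peak lay within 100 kb of the approximate Lef1 position. Its summit was at 130792881, 7.12 kb below the stated span, with a signal of 22.4, 0.824 times the median of the list, and a score of 733. The span is given only to 0.1 Mb, so the peak's place relative to the gene's start is uncertain. It stood alone, with the nearest other summit 206 kb away on the lower side and the next on the higher side 254 kb away.

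Because the build of the list is unresolved, its positions were not laid on a genome sequence, and no peak sequence is printed. Of the 3 genes, only Lef1 had promoter sequences in the RefSeq table used, 4 windows of 300 bases, each from 250 bases before to 50 bases after an annotated start on GRCm38.p6. They were searched on both strands for AGGTGT, the core of the element bound by T-box factors, which reads ACACCT on the other strand. The core was present in 2 of the 4 windows, at starts inside the annotated gene, and in 13.8% of all 32544 promoter windows of this table. The longer AGGTGTGA, which contains the core, was in none of the 4 and in 1.28% of all windows. The 3 matches are shown because they are the T-box cores found in these windows. They are given with the core in capitals, forward strand, at their GRCm38.p6 positions. These can be set beside the peak positions only if the list is on GRCm38, which is unresolved.
Lef1 start 3 of 4, chr3:131112548-131112577: tccccacagcccACACCTtagcggccactc
Lef1 start 3 of 4, chr3:131112772-131112801: gtgcttttaagaACACCTcagagttacctt
Lef1 start 4 of 4, chr3:131156293-131156322: cagatcaagaaaAGGTGTttatctctattg
The first begins 231 bases before its start, the second 7 bases before it, and the last 11 bases after the most distal start. The windows of the first 2 starts, which overlap each other, held no core. A match of 6 letters is a description of the sequence and does not show binding. Read on GRCm38, no listed summit lies inside the annotated Lef1 gene or within 10 kb of it, so none lies at these starts. On mm9 this was not tested.

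The 2 strongest Lef1 peaks lay far upstream. The stronger spanned 130529481 to 130529625 on chromosome 3. Its summit, at 130529550, lay 270 kb below the gene with a signal of 61.4 and ranked 1118 of all peaks. The other spanned 130586983 to 130587155. Its summit, at 130587048, lay 213 kb below with a signal of 46.8 and ranked 2050. They were the only Lef1 peaks with the highest score, 2 of 12 (16.7%) against 45.4% of all peaks, and the first was the only one in the top 10% of the list by signal.

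Around these peaks were others of lower strength. Between 130521537 and 130587048, a stretch that starts 278 kb below the gene, there were 7 of the 12 Lef1 summits. Besides the strongest pair, their signals were 16.0, 14.8, 23.7, 18.0 and 10.6 in order along the chromosome, and their scores lay between 598 and 862. One more upstream peak, at 130439964 and 360 kb from the gene, had a signal of 27.2 and a score of 837.

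On the downstream side the Lef1 window held 3 peaks. A lone peak at 131046474, 146 kb above the stated span, had a signal of 25.9 and a score of 959. A pair 288 bp apart, at 131297905 and 131298193, had signals of 19.6 and 10.4 and scores of 620 and 673.

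As a set the Lef1 peaks were weaker than the list's typical peak. Their median signal was 21.0, and 3 of 12 (25%) lay above the list's median of 27.2. Without the 3 peaks that had a stronger summit within 500 bp, the Lef1 median was 23.7. The list's median still counts such peaks. The stricter IDR limit of 0.01, which is a score of 830 or more, was met by 5 of 12 (41.7%), against 60.0% of all peaks. With 12 peaks from 1 list, these shares are a description and were not tested against the rest.

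**Figure D2:**
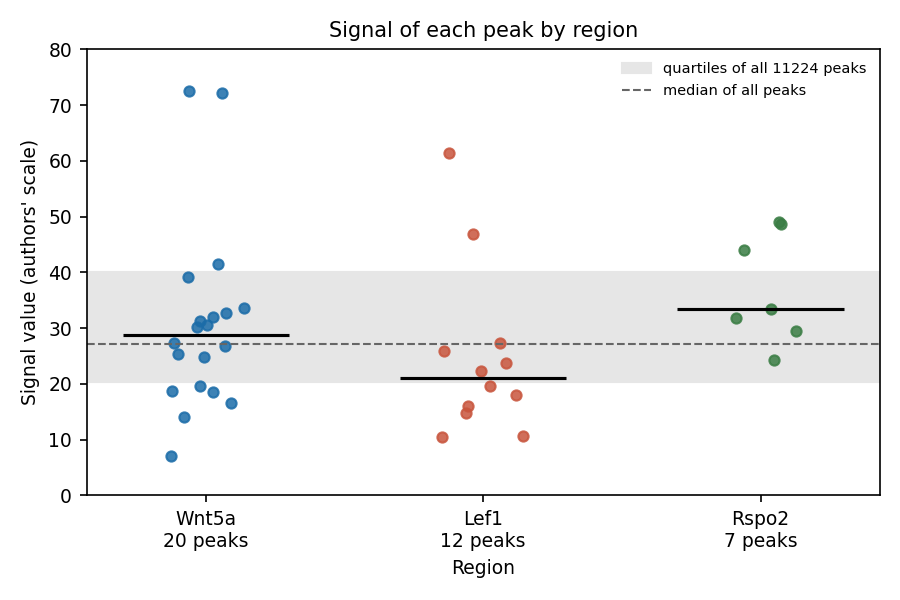
Signal value (vertical axis, the authors' scale) of each peak in the Wnt5a, Lef1 and Rspo2 regions, with a black line at each region's median. The grey band spans the quartiles of all 11224 peaks, 20.3 to 39.96, and the dashed line is their median of 27.2. Most Lef1 points lie below the dashed line, and 6 of 7 Rspo2 points lie above it.

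Rspo2 had the fewest peaks, and these were spaced widely along the window. Its region held 7 peaks, or 5.83 per Mb, against 3.98 on chromosome 15, and 615 of 2112 windows of 1.2 Mb (29.1%) held at least as many. The density of the Rspo2 region was therefore common in the list. In RefSeq's order Angpt1, which encodes a ligand of the endothelial receptor Tie2, is the protein-coding neighbour at lower coordinates and Eif3e, which encodes a subunit of a translation initiation factor, the neighbour at higher coordinates.

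No summit fell inside the approximate Rspo2 span. The nearest peaks flanked it, at 42809336, 40.7 kb below, with a signal of 29.6 and a score of 720, and at 43045193, 45.2 kb above, with a signal of 31.9 and a score of 896. The 236 kb between them was the longest stretch without a summit in the window. Read on GRCm38 in place of mm9, 1 peak would lie within 10 kb of the annotated Rspo2 gene or inside it, and none would for Wnt5a or Lef1.

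Of the 5 Rspo2 peaks beyond 100 kb, 4 were stronger than both of the nearer peaks. The strongest spanned 43221133 to 43221244 on chromosome 15. Its summit, at 43221151, lay 221 kb above the gene with a signal of 48.9 and ranked 1872 of all peaks. It was followed by the peak at 42640472, 210 kb below, with a signal of 48.6, and by the peak at 42358784, 491 kb below, with a signal of 44. The peak at 43231518, 232 kb above, had a signal of 33.5. All 4 had a score of 1000, whereas neither of the 2 peaks within 100 kb did. Over the region 4 of 7 peaks (57.1%) had this score, against 45.4% of all peaks. With so few peaks, a difference by distance was not tested.

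The last of the 7 Rspo2 peaks, at 42467198 and 383 kb below the gene, had the lowest signal, 24.3, and a score of 558, close to the list's limit. The median signal was 33.5 and 6 of 7 (85.7%) exceeded the list's median, yet none reached the top 10%, which starts at a signal of 61.3. The 7 signals spanned a narrower range than the 20 of Wnt5a and the 12 of Lef1, but a range tends to widen with the number of values.

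**Figure D3:**
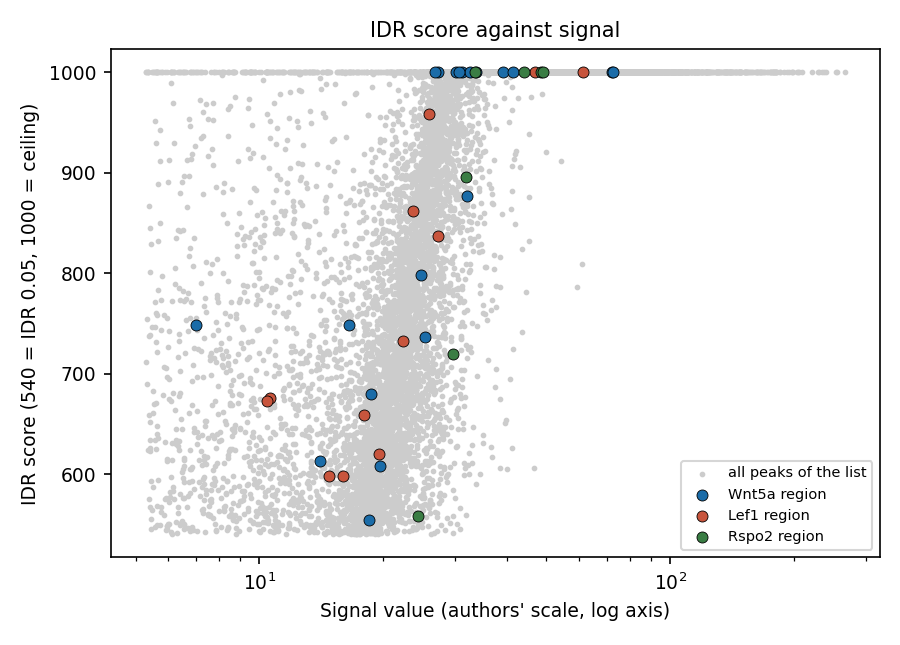
IDR score (vertical axis) against signal value (horizontal log axis, the authors' scale) for all peaks in grey and for the peaks of the 3 regions in colour. All 11 peaks of the regions with a signal above 33 have the ceiling score of 1000. The share of all peaks above that signal with this score was not counted, so this is not read as a trait of the regions. The faintest peak of the regions, a Wnt5a peak at 7.0, lies far left of the main band at a score of 748.

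Spacing also differed among the genes. Another summit lay within 10000 bp of 13 of 20 Wnt5a peaks (65.0%), 8 of 12 Lef1 peaks (66.7%) and 0 of 7 Rspo2 peaks, against 42.7% over the whole list. The closest Rspo2 summits were 10367 bp apart, just over that limit. The Lef1 share was 0 of 5 among peaks with an IDR of 0.01 or below and 0 of 3 in the stronger 50% of the list. Under these settings it did not differ from that of Rspo2. Such filters remove neighbours in any region, and the list's share under them is not given. The Lef1 counts are therefore not read as a trait of that region. When summits within 10000 bp were joined, the Wnt5a peaks formed 12 groups, of which 7 were single peaks, the Lef1 peaks formed 7 groups with 4 single, and the Rspo2 peaks formed 7 single groups.

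Some close neighbours may be 1 site listed more than once, which the list cannot tell apart. A stronger summit lay within 500 bp of 2 Wnt5a peaks, 3 Lef1 peaks and no Rspo2 peak, 5 of 39 (12.8%) in all, against 10.1% of the list. These 5 pairs were 199 to 288 bp apart, their listed intervals overlapped, and the weaker peak had between 0.422 and 0.925 times the signal of the stronger. Without the weaker peaks of these pairs, the share with another summit within 10000 bp fell to 50.0% for Wnt5a and 44.4% for Lef1. The share for Rspo2 stayed at 0.0%. The list's 42.7% still counts such peaks, so these reduced shares do not show whether spacing in the regions differed from the list. The peak at 29640791, beside the strongest Wnt5a peak, had a signal of 30.6. In 2 of the Lef1 pairs the weaker peak had a q-value above 0.05, 0.0566 at 130570355 and 0.0669 at 131298193. With the Wnt5a peak at 29319282 this made 3 of 39 (7.69%), against 6.07% of all peaks.

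Most peaks had the same listed width. Of the 39, 34 (87.2%) were 416 bp wide, against 84.3% of the list. The other 5 were narrower, from 112 to 210 bp, and were the 2 strongest Wnt5a peaks, the 2 strongest Lef1 peaks and the strongest Rspo2 peak. Whether narrow peaks were also the strong ones over the whole list was not counted, so this is not read as a trait of the regions.

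**Figure D4:**
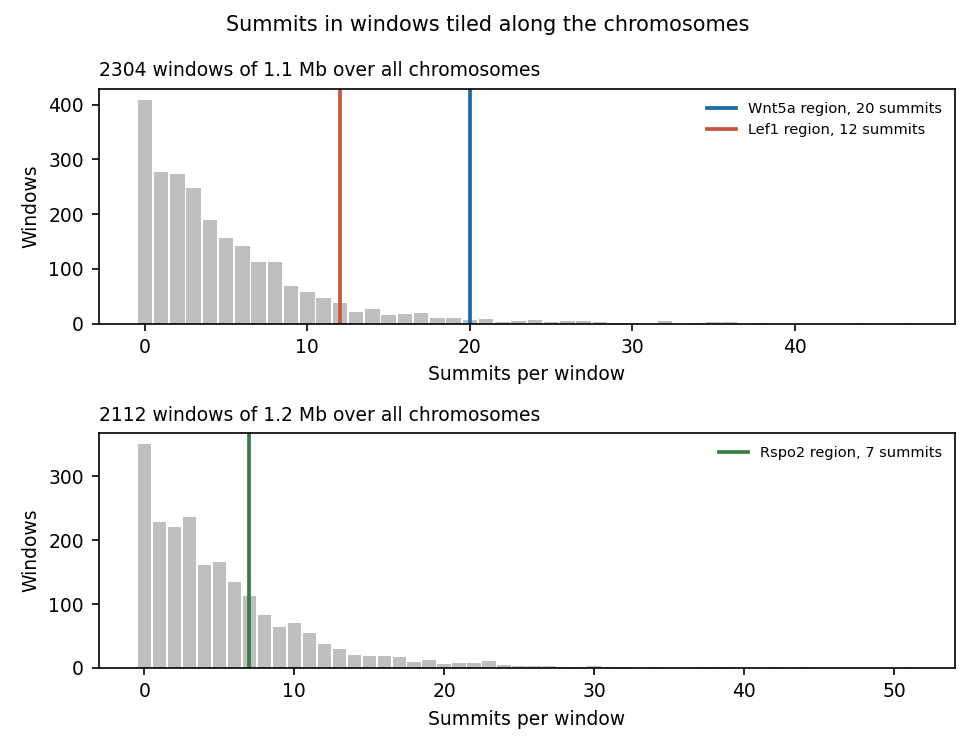
Number of windows (vertical axis) by the number of TBX5 summits they hold (horizontal axis), for 2304 windows of 1.1 Mb in the upper panel and 2112 windows of 1.2 Mb in the lower one. Coloured lines mark the Wnt5a region with 20 summits, the Lef1 region with 12 and the Rspo2 region with 7. At least as many summits are found in 2.47%, 9.33% and 29.1% of windows.

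Over the 3 regions together, 17 of 39 peaks (43.6%) had the highest score, close to the 45.4% of the list, and the median signal was 27.2, as it was for all peaks. In the mm9 windows the order of density, Wnt5a above Lef1 above Rspo2, was not the order of median signal. By median signal Rspo2 came first with 33.5 and Lef1 last with 21.0. The order of density depends on the build, since windows moved to GRCm38 would hold 10 peaks for Lef1 and 9 for Wnt5a. Measured from the approximate mm9 positions, the strongest peak was 321 kb from Wnt5a, 270 kb from Lef1 and 221 kb from Rspo2. These distances also depend on the build. Beyond 100 kb lay 10 of 20 Wnt5a peaks, 11 of 12 Lef1 peaks and 5 of 7 Rspo2 peaks. A distant strongest peak is therefore not read as a trait of the regions. Distance alone does not show which gene a peak acts on.

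Just outside the Wnt5a window were peaks at 28775528 with a signal of 59.0 and at 29928215 with a signal of 24.3, and the outermost peaks inside it, at 28875216 and 29640791, had signals of 24.7 and 30.6. For Lef1 the nearest peaks outside had signals of 23.1 at 130133307 and 27.3 at 131401362, the latter 1.36 kb beyond the edge, and those inside had 27.2 and 10.4. For Rspo2 they were 18.4 at 42204555 and 28.1 at 43597134 outside, and 44 and 33.5 inside.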

How the data were processed

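One peak list of 11224 rows was analysed, made by the authors from 2 TBX5 ChIP and 2 input libraries of single-end 75-base reads, per the labels. Its 10 columns follow the narrowPeak layout. The deposited score is a scaled IDR, the deposited signal value is the peak caller's strength, and the deposited −log10 q-value is its significance. The deposited p-value column holds -1 throughout. The submitters' processing notes name FastQC and mm10. The aligner, the peak caller, their settings and any pooling are not given in the sources used here. Read depth is unknown, so no counting interval can be given.

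Members and lists were chosen with earlier results of these data known. Every result is a description, because the list has no replicate values. Peaks named are the 5 strongest of each region, the 3 nearest the gene and those at the window edges, and the others complete the groups they belong to. Positions are 1-based. Gene names, their order and the promoter sequences came from RefSeq GRCm38.p6, and all 3 symbols matched the gene table. Windows of equal length were tiled from the first summit of each chromosome. A wider list of Wnt pathway genes was not counted, since the build of the list is unresolved and no mm9 annotation was used. The counting steps were tested on simulated data. Python 3.11.15, NumPy 2.4.6, SciPy 1.17.1, pandas 2.3.3 and matplotlib 3.10.9 were used. Alternatives were a stricter IDR, joined or filtered neighbours, the stronger 50% of peaks, other windows and other distances.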

Additional observations from a re-analysis of the deposited data

How the results depend on the processing

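Of 156 alternative values, 127 stayed within 1.5 times the reported count, density or median, or for shares within the 95% exact binomial interval, and 29 did not. The interval served only as a tolerance, since neighbouring peaks of 1 list are not independent. Some alternatives returned the same peaks, as when intervals in place of summits decided membership. The tally is therefore not a measure of robustness. The reading on GRCm38, added after the data were seen, gave 9 Wnt5a peaks. At an IDR of 0.01 or below, 22 of the 39 peaks were left (12 for Wnt5a, 5 for Lef1), at 6.47 per Mb, with 77.3% at the highest score and 31.8% with another summit within 10000 bp. In the stronger 50% by signal, 20 were left (11 and 3), at 5.88 per Mb, with shares of 80% and 30%. Within 250 kb of the genes there were 22 (11 and 6). These settings keep fewer peaks by construction, and the first pair select on score or on signal. Of windows on the region's own chromosome, 11.3% held as many summits as Lef1 and 22.9% as many as Rspo2. Joining summits within 50000 bp left 5 Wnt5a groups. No paired analysis was possible because each peak carries 1 value for both replicates, which also precluded leaving a replicate out. Depth is unknown, so sites missed for lack of reads cannot be counted.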

Other observations

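The deposited q-values do not follow the signal through the middle of the list. Among the 3235 peaks with a signal from 22.09 to just under 31.68, 28.8% of the list, the q-value rose with the signal, from 0.00018 to 0.00034. Spearman's rho of signal and −log10 q was -1.0 after rounding, across peaks, which are not independent. The limits of this range were taken from the q-values themselves, so the range was not chosen independently of them. From 31.68 upward all 4331 peaks share the strongest q-value of 0.000113. Of the 39 peaks of the Wnt5a, Lef1 and Rspo2 regions, 13 lay in that middle range. The lone peak beside Lef1, with a signal of 22.4, thus had a q-value of 0.000184, stronger than the 0.000331 of the Wnt5a peak at 29265158 with a signal of 31.2. The IDR score ordered this pair the other way, at 733 and 1000. Within this range of signal, a filter on the q-value would tend to remove stronger peaks before weaker ones.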
